A study of Caenorhabditis elegans with 4 samples.

Results

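Broad RNA polymerase II regions are the widest stretches of enrichment in a chromatin immunoprecipitation sequencing (ChIP-seq) map of early *Caenorhabditis elegans* embryos. They were chosen by their measured width, as every listed region on the nuclear chromosomes that spanned 3000 bp or more, and 461 of the 8121 listed regions met this limit. The map came from wild-type N2 worms, the laboratory reference strain, of hermaphrodite sex and grown at 20 degrees Celsius. Chromatin in the 2 ChIP libraries was labelled as precipitated with 8WG16, a mouse monoclonal antibody to the repeated C-terminal tail of the largest polymerase subunit, AMA-1. The other 2 libraries were input DNA, made without precipitation. The 4 libraries entered 1 combined list, so each value below is a value over all of them, with no replicate error. A general protocol in the labels speaks of precipitation through a GFP tag, which differs from the antibody named for the ChIP libraries, and the antibody entry was followed.

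Polymerase II transcribes the protein-coding genes. It is loaded at promoters, may pause just after the start, and then moves through the gene body to beyond the poly(A) site, so a stretch of signal can be as short as a promoter or as long as a transcribed gene. Worm genes are compact, and many lie in operons, in which several genes are read from a single promoter as 1 precursor RNA. In this species the outer arms of the autosomes recombine often and carry more repeats, while the centres hold many of the conserved and strongly expressed genes. The antibody 8WG16 is known to prefer the tail in its less phosphorylated form.

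Width, q-value and read numbers all come from the same contrast of ChIP with input that produced the list. The values are therefore given as a description with no test, and regions are not replicates of anything. Coordinates are those of WormBase release WS180. The gene annotation at hand was of another assembly, so no region was assigned to a gene, the cell type could not be checked against marker genes, and no sequence was read. Intervals in the text are exact 95% binomial intervals, and they cover counting error at most. Depth per library is unknown. The list begins at rank 48, so the 47 strongest ranks are not analysed here, and 38 of the 47 strongest listed regions were broad.

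The 461 broad regions were 5.68% of the list but held 30.0% of its covered length, 2178 kb against 5079 kb in the 7660 narrower regions. The broad widths lay between 3001 and 13431 bp. Their median was 4030 bp (quartiles 3452 and 5537 bp), against 469 bp (210 and 900 bp) for the narrower regions. They covered 2.18% of the summed span between the first and last listed base of each chromosome. Most were not far above the limit. Of the 461, 224 spanned 3 to 4 kb, 88 spanned 4 to 5 kb, 108 spanned 5 to 7.5 kb, 30 spanned 7.5 to 10 kb and 11 were wider than that.

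The limit cuts through a continuous range of widths. Just inside it lay regions of 3001 bp on chromosome V (1574713 to 1577713), 3004 bp on chromosome III (5504206 to 5507209) and 3005 bp on chromosome I (4334271 to 4337275), with 2.54, 1.91 and 1.72 ChIP reads per input read. Just outside it lay regions of 2997 bp on chromosome III (2170860 to 2173856), 2984 bp on the X chromosome (14501626 to 14504609) and 2983 bp on chromosome I (2876567 to 2879549), with 4.87, 1.31 and 3.18 ChIP reads per input read. The ratios on either side of the limit overlapped.

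At the limit of 3000 bp, broad regions were spread almost evenly over the chromosomes, and narrower regions were not. Chromosome I had 3.94 broad regions per Mb of span, chromosome II had 5.18, chromosome III 5.25, chromosome IV 4.61, chromosome V 4.13 and the X chromosome 4.82, so the highest density was 1.33 times the lowest. Narrower regions numbered 125 per Mb for chromosome I, 90.3 for II, 113 for III, 71.1 for IV, 60.6 for V and 21.3 for X, a 5.84-fold range. Chromosome III was thus first and chromosome I last for broad regions, whereas chromosome I was first and the X chromosome last for narrower regions.

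**Figure D1:**
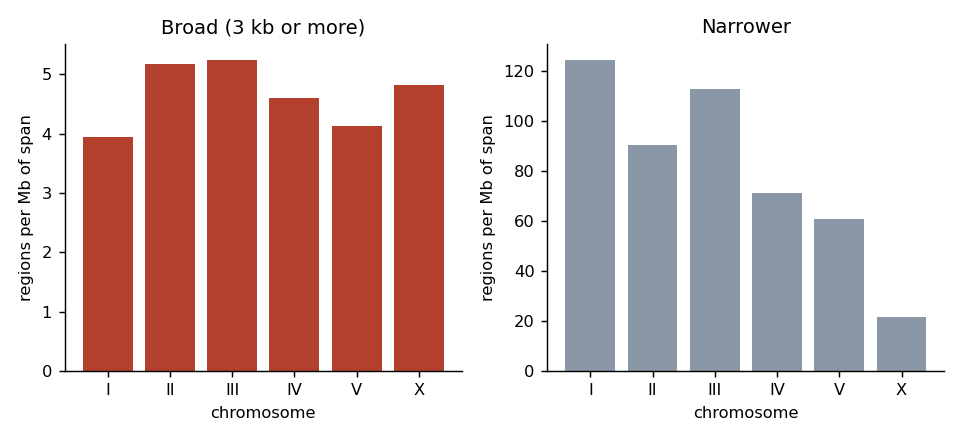
Regions per Mb of chromosome span on each of the 6 chromosomes, broad regions in the left panel and narrower regions in the right panel, with separate vertical scales that both start at 0. Broad regions lie between 3.94 and 5.25 per Mb on every chromosome, while narrower regions run from 21.3 per Mb on the X chromosome to 125 on chromosome I.

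The numbers of broad regions behind these densities were 59 for chromosome I, 79 for II, 72 for III, 80 for IV, 86 for V and 85 for X. The X chromosome held 18.4% of the broad regions (15 to 22.3) and 4.91% of the narrower regions (4.44 to 5.42), beside 17.7% of the span. Chromosome I held 12.8% of the broad regions (9.89 to 16.2) and 24.3% of the narrower regions (23.4 to 25.3), beside 15% of the span. For broad regions, the share of the span fell within the interval of the share of regions on all 6 chromosomes. Both contrasts shrank, with their direction kept, when neighbours within 1000 bp were merged before the width limit was applied. That gave 901 broad regions, of which 11.4% lay on the X chromosome, against 5.78% of the narrower ones. After merging, the X share of broad regions was thus below the 17.7% of the span. Without merging it was 15.6% at a limit of 2000 bp and 20.8% at 5000 bp, both within the interval of the share at 3000 bp. The near match of the X share to the span was thus lost on merging, while the other width limits moved the share only within that interval.

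Seen from each chromosome, broad regions were 18.4% of all listed regions on the X chromosome (85 of 461 listed there, 15 to 22.3) and 4.91% on the autosomes (376 of 7660, 4.44 to 5.42). The lowest share was 3.07% on chromosome I, and the next above the autosomal mean were 5.42% on II, 6.09% on IV and 6.38% on V. In covered length, the X chromosome carried 23.5 kb of broad regions per Mb and the autosomes 21.5 kb. Narrower regions covered 21.9 kb per Mb on the X chromosome and 57.2 kb per Mb on the autosomes. Broad regions were thus 51.7% of the covered length of the X chromosome, against 27.3% on the autosomes.

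The X share rose with width along the whole list, not only at the limit. It was 1.53% of the regions under 200 bp, 3.77% at 200 to 500 bp, 5.62% at 500 to 1000 bp, 8.25% at 1 to 2 kb and 12.3% at 2 to 3 kb. Within the broad regions it was 18.3% at 3 to 4 kb, 14.8% at 4 to 5 kb, 18.5% at 5 to 7.5 kb and 26.8% (14.2 to 42.9, 11 of 41) at 7.5 kb or more. The intervals of the 4 broad classes overlapped each other, so no order can be read among them. Chromosome I went the other way, with 29.0% of the regions under 200 bp, 18.3% at 1 to 2 kb and 2 in 41, or 4.88%, at 7.5 kb or more.

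**Figure D2:**
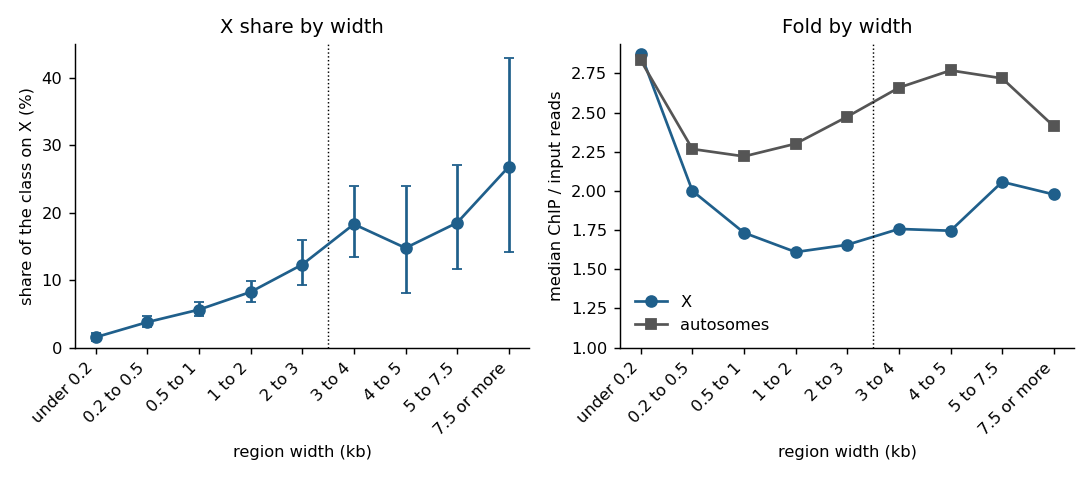
Share of regions on the X chromosome with exact 95% intervals (left) and median ratio of ChIP to input reads on the X chromosome and the autosomes (right) in 9 classes of region width, with a dotted line at 3 kb. The X share climbs from 1.53% in the narrowest class to between 14.8% and 26.8% in the 4 broad classes, where the X ratio is below the autosomal one in each.

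The widest listed regions of each chromosome were of like size. The widest spanned 10.1 kb on chromosome I (1833710 to 1843809) and 10.1 kb on II (8897034 to 8907146). On chromosome III it spanned 11.0 kb (6837432 to 6848384), and on the X chromosome 10.4 kb (3115676 to 3126082). Chromosomes IV and V held the widest of the list, with 12.2 kb and 13.4 kb. Median broad widths lay closer together, between 3796 bp (chromosome I) and 4170 bp (chromosome III), and the X chromosome had 4143 bp.

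Along the chromosomes, broad regions lay toward the middle more often than narrower ones. The central 33.3% of the spans held 178 of the 461 broad regions, or 38.6% (34.1 to 43.2), and 31.4% of the narrower regions (30.3 to 32.4). Among narrower regions this share was 21.5% under 200 bp and 29.8% at 200 to 500 bp. It was 36.7% at 500 to 1000 bp, 38.5% at 1 to 2 kb and 34.9% at 2 to 3 kb, near the broad share. Within the broad classes it ran from 31.8% at 4 to 5 kb to 43.9% at 7.5 kb or more. The pooled difference was thus mostly one from regions under 500 bp. The outermost 10% at either end held 15.4% of the broad regions (12.2 to 19.0) and 22.5% of the narrower regions (21.5 to 23.4). The first 10% of the span alone held 6.51% of the broad regions and 11.4% of the narrower regions. The share of broad regions was highest from 60% to 70% of the span, at 13.7% (10.7 to 17.1), where narrower regions had 9.83%.

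**Figure D3:**
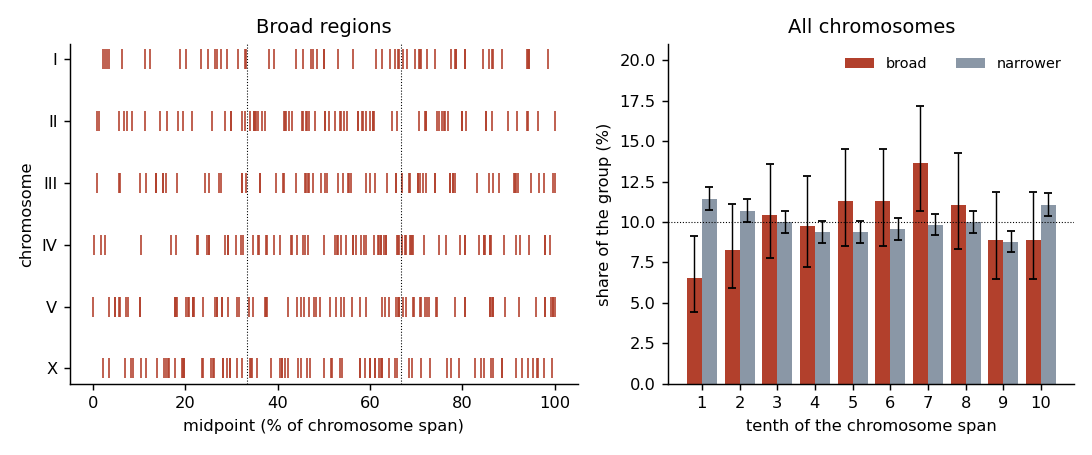
Midpoints of the 461 broad regions as percent of the span of each chromosome, with dotted lines at the limits of the central 33.3% (left), and the share of broad and narrower regions in each 10% step of the span over all chromosomes with exact 95% intervals (right, dotted line at an even 10%). Broad regions are sparser than narrower ones in the first 2 steps and the last and denser in the steps from 40% to 80%.

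By chromosome, the central share of broad regions stood farthest above that of narrower regions on chromosomes II and IV. On chromosome II, 38 of 79 broad regions (48.1%) were central, against 31.4% of its narrower regions, and the density was 7.47 per Mb in the centre and 4.03 outside it. On chromosome IV, 36 of 80 (45%) were central, against 27.7% of the narrower regions, with 6.22 per Mb in the centre and 3.80 outside it. On the X chromosome, 34 of 85 (40%, 29.5 to 51.2) were central, against 29.3%, which is close to the lower limit of that interval. Chromosome III differed little, with 34.7% of broad and 32.0% of narrower regions in the centre. On chromosomes I and V the order was the other way, with 28.8% of broad and 30.5% of narrower regions on I, and 32.6% of broad and 36.0% of narrower regions on V. For chromosomes I, III and V no order is read from differences of this size.

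Broad regions were found in nearly every Mb. Of 90 complete bins of 1 Mb, 1 held none, and it lay on chromosome IV. The median per bin was 4 on chromosomes I and V, 4.5 on II and X, and 5 on III and IV. The fullest bins held 10 broad regions each, 1 on chromosome III (9000001 to 10000000) and 1 on the X chromosome (10000001 to 11000000). On chromosome I no bin held more than 7.

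Compared with all narrower regions together, broad regions were closer to their nearer neighbour and farther from the one on the other side. The nearer gap had a median of 378 bp in broad regions (quartiles 254 and 1640 bp) and 580 bp in narrower regions (300 and 1833 bp). The farther gap had a median of 9379 bp in broad regions (quartiles 1529 and 36574 bp) and 5265 bp in narrower regions (1281 and 22773 bp). Regions on either side of the width limit differed less. At 2 to 3 kb the median nearer and farther gaps were 396 and 7036 bp, against 370 and 8290 bp at 3 to 4 kb. Under 200 bp they were 697 and 5532.5 bp. The direction of the pooled difference thus depends on the side that is measured. It also turned for the nearer gap when neighbours within 1000 bp were merged first, with 3125 bp for broad and 2736 bp for narrower regions.

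**Figure D4:**
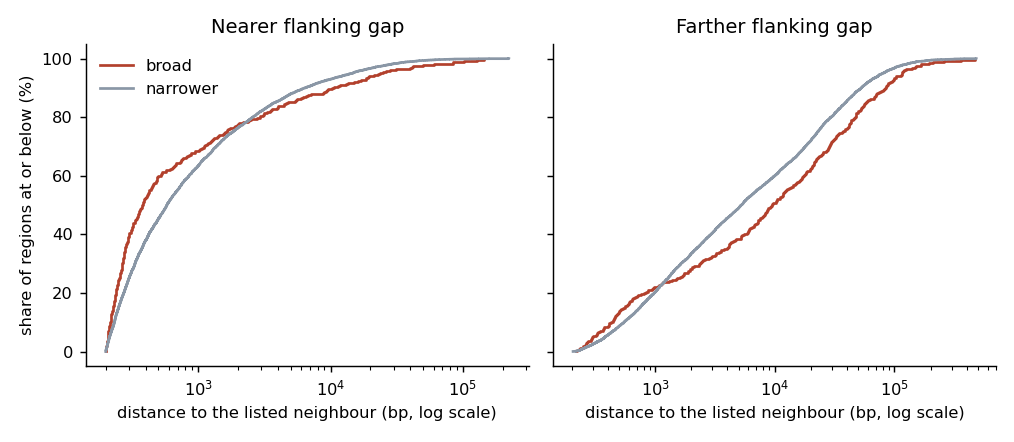
Cumulative share of broad and narrower regions by distance to the nearer (left) and the farther (right) flanking region of the list, on log scales in bp. In the left panel the broad curve lies above the narrower one at short distances, with 59.9% against 45.3% at 500 bp, and the curves cross at a few kb, and in the right panel the median is 9379 bp for broad and 5265 bp for narrower regions.

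The excess of close neighbours was largest at the shortest distances. The smallest gap in the list was 200 bp, and 185 broad regions, or 40.1% (35.6 to 44.8), had a neighbour at 200 to 299 bp, against 24.9% of narrower regions (24.0 to 25.9). Within 500 bp the shares were 59.9% of broad and 45.3% of narrower regions. Within 1000 bp they were 68.5% (64.1 to 72.8) of broad and 63.4% (62.3 to 64.5) of narrower regions. By width, the share within 1000 bp was 71.1% at 1 to 2 kb and 68.6% at 2 to 3 kb, near that of broad regions. It was 58.6% under 200 bp and 58.5% at 7.5 kb or more. In the stronger 50% of the list the shares within 1000 bp were 68.6% of broad and 68.4% of narrower regions. At the other end, 10.4% of broad and 7.04% of narrower regions had no neighbour within 10 kb. Within the autosomes these shares were 6.38% (4.13 to 9.35) of broad and 5.86% of narrower regions, and on the X chromosome 28.2% (19.0 to 39.0) and 29.8%, so most of the pooled difference was absent within either. The close neighbour was on the side of lower coordinates in 229 of 461 broad regions (49.7%), so neither side was preferred.

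The close neighbours of broad regions were mostly narrow, yet wider than those of narrower regions. Within 1000 bp, the nearest neighbour of a broad region had a median width of 884 bp, and 31.6% of them (26.6 to 37.1) were under 500 bp, against 47.4% (46.0 to 48.8) for narrower regions. The nearest neighbour was itself broad for 57 broad regions (12.4%, 9.50 to 15.7) and for 5.68% of narrower regions. In 175 of 273 pairs of a broad region and a narrower neighbour within 1000 bp, the broad region had the higher ratio of ChIP to input reads, and the median log2 difference, broad minus neighbour, was 0.18.

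Listed regions of the X chromosome, broad and narrower alike, stood farther from other regions than those of the autosomes. For broad X regions the nearer gap had a median of 529 bp, against 374.5 bp for autosomal broad regions, and the farther gap 43327 bp against 7180 bp. Narrower X regions had 1211.5 and 43748 bp, against 573 and 4809 bp on the autosomes, so the farther gap was longer in broad than in narrower regions on the autosomes and slightly shorter on the X chromosome. A neighbour within 1000 bp was present for 43 of 85 X broad regions (50.6%, 39.5 to 61.6) and for 72.6% (67.8 to 77.1) of the autosomal ones, beside 47.6% and 64.3% for narrower regions. X broad regions also had a broad flanking neighbour more often, in 37 of 85 cases (43.5%, 32.8 to 54.7), against 56 of 376 (14.9%, 11.5 to 18.9) on the autosomes, and so did narrower regions, at 31.6% against 9.21%. These shares were not adjusted for the larger part that broad regions make up of all listed X regions.

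The 3 broad regions farthest from any listed neighbour lay on chromosomes IV and X. That on chromosome IV (16167332 to 16171015) spanned 3.68 kb with its nearest neighbour 145 kb away. Those of the X chromosome spanned 7.62 kb (12844487 to 12852108), with 144 kb to the nearest neighbour, and 3.97 kb (7822996 to 7826967), with 127 kb. Their ratios of ChIP to input reads were 2.14 (1.89 to 2.43), 1.54 (1.42 to 1.67) and 2.03 (1.81 to 2.28). All 3 were below the median of 2.53 for broad regions.

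By q-value, broad regions lay mostly in the top of the list, although narrower regions were the majority there too. The median −log10 q was 62.4 for broad regions (quartiles 33.6 and 102) and 4.77 for narrower regions (2.97 and 9.64). Of the strongest 10% of the list 44.6% were broad, and 362 of the 461 broad regions (78.5%) were there, while 65 were in the second 10%, 34 in the 6 steps after it, and none in the weakest 20%. The weakest broad region had q = 0.00105, although q-values up to 0.01 were listed. A wider region collects more reads, and the q-value falls with read number at a given ratio, so q-values and width are bound to each other. On the X chromosome the median −log10 q of broad regions was 28.7, against 69.8 on the autosomes.

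Read numbers behind the q-values were recovered for 459 of the 461 broad regions. A broad region held a median of 1015 ChIP and 402 input reads (ranges 389 to 3728 and 103 to 1621), against 104 ChIP and 45 input reads in narrower regions. Any scaling of the input by the authors is already part of these input numbers. Broad regions together held 31.6% of the ChIP reads and 30.2% of the input reads of the listed regions, close to their 30.0% share of the covered length. Per kb, broad regions had a median of 240 ChIP and 99.1 input reads, against 243 and 104 in narrower regions. Pooled over widths, the median read densities of broad and narrower regions were thus close, while the median widths and read totals were far apart. By width, ChIP reads per kb had a median of 370 under 200 bp, 206 at 1 to 2 kb and 259 at 5 to 7.5 kb. Input reads per kb were 139, 92.9 and 101 in these classes. A listed region of 1 bp can hold 29 ChIP and 11 input reads, so densities per kb run high in very short regions.

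The ratio of ChIP to input reads, termed the fold here, had a median of 2.53 in broad regions (quartiles 2.00 and 3.15) and 2.37 in narrower regions (1.93 and 3.10). This pools chromosomes of unlike fold. On the autosomes the medians were 2.67 for broad and 2.41 for narrower regions, and on the X chromosome 1.81 and 1.82. Among narrower regions the median was 2.83 under 200 bp and 2.19 at 500 to 1000 bp. The direction of the pooled difference turned in the stronger 50% of the list, where the median was 2.54 for broad and 2.72 for narrower regions. That part held 98.0% of the broad and 47.1% of the narrower regions. It was chosen by q-value, which itself depends on fold and read number, so the turn cannot be told apart from this selection. The range was 1.20 to 7.45 in broad and 1.22 to 36 in narrower regions, and a fold of 5 or more was reached by 15 broad regions (3.27%) and 5.37% of narrower regions. Between 1126 and 1994.5 reads of both kinds, the quartiles of the broad regions, 230 broad regions had a median fold of 2.61 and 38 narrower regions one of 4.25. Those narrower regions had a median width of 2722 bp and similar input per kb, 98.3 reads in broad and 99.9 in narrower regions. ChIP reads per kb were 248 in the broad and 394 in the narrower regions of this match. A region below the width limit reaches such read numbers only at a high read density. The match thus selects narrower regions of high density, and with input alike, of high fold. No conclusion on width and fold is drawn from it. Among broad regions fold hardly moved with width (Spearman rho = 0.01, Pearson r = −0.02 on log2 values, over 459 regions of the same libraries). On the X chromosome alone rho was 0.26 and r 0.26 (85 regions), and on the autosomes rho was 0.01 and r −0.05 (374 regions). Wide regions of high fold have the lowest q-values. Such regions may lie at the 47 absent ranks, which enter none of these correlations. Over all broad regions fold was lower where input per kb was higher (Spearman rho = −0.63, Pearson r = −0.68 on log2 values), 2 measures that share the input number.

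**Figure D5:**
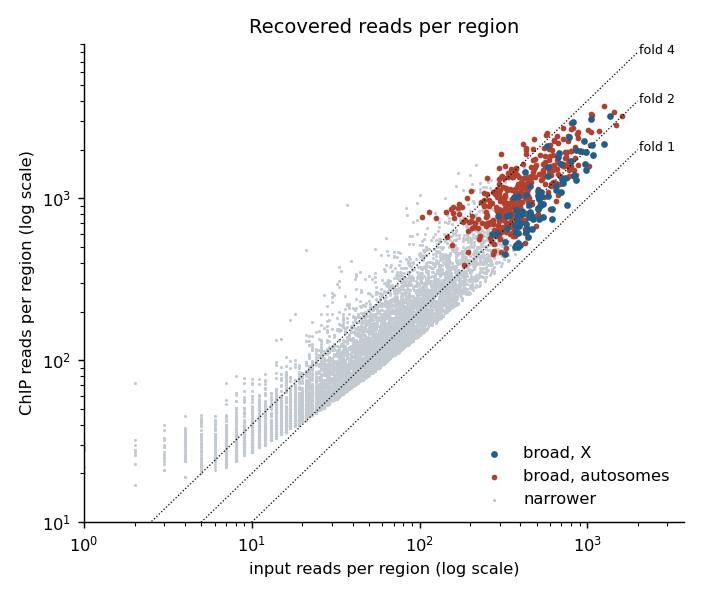
ChIP reads against input reads of each region with recovered reads, both on log scales, for broad regions of the X chromosome, broad regions of the autosomes and narrower regions, with dotted lines at folds of 1, 2 and 4. Broad regions form the upper right end of the cloud, and those of the X chromosome lie nearest to the line of fold 1, with a median fold of 1.81 against 2.67 for autosomal broad regions.

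Broad regions of the X chromosome had the lowest fold of any chromosome. The median was 1.81 on the X chromosome (quartiles 1.64 and 2.23), against 2.67 on the autosomes (2.15 and 3.28), where single chromosomes ran from 2.41 on IV to 2.83 on V. A fold under 2 was seen in 53 of 85 X broad regions (62.4%, 51.2 to 72.6) and in 61 of 374 autosomal ones (16.3%, 12.7 to 20.5). A fold of 3 or more was seen in 4 X broad regions (4.71%, 1.30 to 11.6) and in 133 autosomal ones (35.6%, 30.7 to 40.6). Narrower X regions had a median of 1.82, so the X level was nearly the same in broad and narrower regions. The X broad regions had both fewer ChIP reads per kb, 211 against 245 on the autosomes, and more input reads per kb, 119 against 95.8. Input density also differed among autosomes, from 81.2 per kb on V to 107 on III in broad regions. Its part in the fold was not tested.

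In each chromosome, broad regions of the centre had a lower median fold than those outside it. The values in the centre and outside it were 2.55 and 2.70 on chromosome I, 2.71 and 2.86 on II, 2.18 and 3.06 on III, 2.16 and 2.56 on IV, 2.53 and 2.95 on V, and 1.74 and 1.93 on the X chromosome. Narrower regions had the same order on all 6 chromosomes, for example 2.10 and 2.59 on III. The gap was thus widest on chromosome III among broad regions. Broad width had no such order, with wider medians in the centre on chromosomes I, II and III and outside it on IV, V and X.

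Among the listed broad regions with recovered reads, those of highest fold on each chromosome spanned between 3.02 and 6.36 kb. Regions at the 47 absent ranks, which have lower q-values, could not be ranked. The highest among the ranked regions was on chromosome II (2242568 to 2245586), 3.02 kb wide. There, 767 ChIP and 103 input reads gave a fold of 7.45 (6.06 to 9.24). Next came 1 on chromosome V (20391273 to 20394474), 3.20 kb wide, where 823 ChIP and 114 input reads gave 7.22 (5.93 to 8.86). Both had few input reads per kb, 34.1 and 35.6, against the broad median of 99.1, while their ChIP reads per kb, 254 and 257, were near the broad median of 240. Input reads are the denominator of the fold by which both were picked.

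The leading region of chromosome I (12040717 to 12046579, 5.86 kb) reached 6.13 (5.43 to 6.94). That of chromosome III (12684849 to 12688445, 3.60 kb) reached 5.30 (4.63 to 6.09), and that of chromosome IV (8771941 to 8778299, 6.36 kb) reached 4.84 (4.39 to 5.35). That of the X chromosome (4960485 to 4965171, 4.69 kb) reached 3.63 (3.31 to 3.99). It held 448 ChIP reads per kb, more than the leading regions of chromosomes I to V, but also 124 input reads per kb. Its interval lay below those of the leading regions of all 5 autosomes, each picked as the highest of its chromosome.

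The broad regions of lowest fold were rich in input reads, which are the denominator of the fold by which they were picked. The lowest was on the X chromosome (372265 to 377107, 4.84 kb), where 745 ChIP reads stood beside 619 input reads at a fold of 1.20 (1.08 to 1.34). That of chromosome IV (12053653 to 12056763, 3.11 kb) had 531 ChIP reads beside 424 input reads, and its interval ran from 1.10 to 1.43. The lowest on the other chromosomes were 1.48 on I (10611843 to 10615966), 1.44 on II (7677205 to 7680513), 1.57 on III (7633628 to 7637418) and 1.45 on V (7204846 to 7210164). These 6 had between 112 and 157 input reads per kb, all above the broad median of 99.1, and the part of input density in their low fold was not tested.

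The strongest listed broad region by q-value on each chromosome was 6.33 to 11.7 kb wide. The 47 absent ranks are stronger than all of them. On chromosome III it lay from 7728556 to 7739114, 10.6 kb wide, with the most ChIP reads among the 459 broad regions whose reads were recovered (3728, beside 1265 input reads) at a fold of 2.95 (2.76 to 3.14). Its nearest listed neighbour was 24.0 kb away. On chromosome V it lay from 8786270 to 8794891, 8.62 kb wide, with 2723 ChIP reads beside 720 input reads at a fold of 3.78 (3.48 to 4.11). It had a listed neighbour at the minimum gap of 200 bp on 1 side and none for 103 kb on the other. The leading X region, from 5478760 to 5485752, likewise had a neighbour at 281 bp and none for 32.0 kb on the other side, and its 426 ChIP reads per kb were well above the X broad median of 211.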

How the data were processed

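The deposited list gave 1 line per enriched region over 4 libraries. Per the file headers its build is WormBase WS180 and each line names PeakSeq, which tests ChIP against input reads. The only deposited measurement is the authors' q-value (a p-value adjusted for multiple tests), at most 0.01. For PeakSeq settings, read mapper, filters and library depths, the sources used here give nothing. Members, measures and alternatives were chosen with earlier results of these data known.

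Widths, gaps and midpoints were computed from the deposited coordinates, and the span of a chromosome runs from its first to its last listed base. Reads were recovered with q = p × total / rank. Neighbouring lines of equal p (2665 pairs) set the first rank at 48. A total of 18572 tested regions turned 73.2% of 41 lines into exact upper binomial tails (probability 0.5), and the next best total 0%. With it, a single pair of read numbers was found for 8116 regions (99.9%), to 1e-09 in the natural logarithm of p. The recovery was checked on a simulated list. Fold intervals are 95% Clopper-Pearson and treat the input as raw counts. Without molecular identifiers, reads may repeat a molecule.

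Regions were named by rule: on each chromosome the widest, the lowest q, the highest and lowest fold and the closest broad pair, then the 3 most isolated, the longest run of broad regions and the 3 regions on either side of the limit. No gene was named and no test was run. Python 3.11.15, pandas 2.3.3, scipy 1.17.1 and matplotlib 3.10.9 were used.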

Additional observations from a re-analysis of the deposited data

How the results depend on the processing

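Of 42 alternatives to 8 results, 25 stayed within the counting interval of the reported value (or within 1.5 times a count) with the direction of broad against narrower kept, 14 moved and 3 reversed. The number of broad regions was 859 at a limit of 2000 bp, 149 at 5000 bp and 901 after neighbours within 1000 bp were merged. That merging also moved the X share to 11.4% and the chromosome I share to 17.6%, turned the median nearer gap (3125 bp for broad and 2736 bp for narrower regions) and sets the share with a neighbour within 1000 bp to 0 by construction. The farther gap also reversed the order (9379 bp and 5265 bp). The share with a close neighbour was 59.9% within 500 bp and 77.7% within 2000 bp, where narrower regions had 76.4%. The central 50% held 58.8% of the broad regions. The median −log10 q was 43.3 at a limit of 2000 bp, 97.4 at 5000 bp and 69.8 on the autosomes. Restricting fold to autosomes gave a median of 2.67 for broad and 2.41 for narrower regions. Over all chromosomes, the lower 95% limit of the fold had a median of 2.25 for broad and 1.58 for narrower regions. Fold reversed in the stronger 50% of the list (2.54 for broad and 2.72 for narrower regions), a part chosen by q-value, which depends on fold. The cause was not tested. No paired analysis was possible because the list combines the replicates, so no library could be left out. Weaker stretches with q above 0.01 and the 47 strongest ranks are in no count.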

Other observations

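Some broad regions form longer stretches that are cut by short gaps. Chained over gaps of at most 1000 bp, the 461 broad regions fell into 424 runs, of which 388 held 1 broad region, 35 held 2 and 1 held 3. The median run spanned 6234.5 bp. The longest, on chromosome II from 10989417 to 11013984, spanned 24568 bp and held 9 listed regions, 2 of them broad, which covered 20543 bp. The run with 3 broad regions lay on the X chromosome from 3450477 to 3468422 and spanned 17946 bp in 4 listed regions. Its 3 broad regions followed each other directly, the only such chain in the list, and the 680.6 kb just after its last broad region is the longest stretch of the X chromosome without another one.

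Broad regions that face each other across about 200 bp can differ in fold. On chromosome II a region of 3309 bp (7677205 to 7680513) at a fold of 1.44 (95% interval 1.27 to 1.63) is followed after 213 bp by a region of 5344 bp at 3.0 (2.72 to 3.31). On chromosome V a region of 8686 bp (15501663 to 15510348) at a fold of 1.64 (1.51 to 1.79) is followed after 256 bp by a region of 3563 bp at 3.16 (2.70 to 3.71). On chromosome IV a region of 11531 bp (15036411 to 15047941) and one of 3082 bp lie 207 bp apart with folds of 2.63 (2.44 to 2.83) and 3.21 (2.83 to 3.65). The closest pairs on chromosomes I, III and X lie 221, 219 and 207 bp apart, with folds of 3.51 and 2.55 on I, 3.30 and 4.01 on III and 2.03 and 2.80 on the X chromosome. All 6 gaps were near the smallest gap of the list, 200 bp.

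Long stretches without a broad region were not empty of polymerase. On chromosome V none lay between 2136437 and 3706545, a stretch of 1570 kb that held 49 narrower regions. On chromosome IV none lay between 567182 and 1908077, a stretch of 1341 kb with 161 narrower regions. On chromosome I none lay between 1843809 and 2821359, a stretch of 978 kb with 145 narrower regions, bounded by the widest and by the strongest listed broad region of that chromosome. Over the whole span, narrower regions numbered 60.6 per Mb on V, 71.1 on IV and 125 on I. The stretch on V was thus sparser in narrower regions than its chromosome, and the stretches on IV and I were denser.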
